A study of Mus musculus with 12 samples.

Results

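The Hox cluster genes are the members of 4 gene clusters of the mouse, Hoxa, Hoxb, Hoxc and Hoxd, and their messenger RNA was measured in blood stem and progenitor cells of the fetal liver. They were taken by name, as every gene symbol made of Hoxa, Hoxb, Hoxc or Hoxd and a number, which gave 39 of the 24054 genes in the tables: 11 in Hoxa, 10 in Hoxb, 9 in Hoxc and 9 in Hoxd. The choice used no measured value.

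Hox genes encode homeodomain proteins, transcription factors that bind DNA together with partner proteins of the Pbx and Meis families and give cells of the embryo their position along the body axis. Genes in a cluster lie in the order in which they are used along that axis, and genes with the same number in different clusters, called paralogues, descend from a shared ancestor. In blood, some Hoxa and Hoxb genes are known to be used in stem and early progenitor cells and to be shut off as these cells mature. A raised Hoxa9 level is a hallmark of several leukaemias.

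The study compared fetuses labelled as Setdb1 mutants with controls at E13.5, a midgestation stage of the embryo, in sorted LSK cells, a surface phenotype of early blood cells. Setdb1 encodes a methyltransferase of lysine 9 on histone H3, and the vav-cre transgene expresses Cre recombinase from a promoter active in blood cells. The 12 RNA sequencing libraries formed 4 groups of 3. Mutants of both cell types, LT-HSC and MPP, had the genotype Setdb1 p/p;vav-cre. What the p allele is, no label says. Among the LT-HSC controls, control 1 was Setdb1 +/p;+/+ and controls 2 and 3 were Setdb1 +/p;vav-cre. Among the MPP controls, controls 1 and 2 were Setdb1 +/p;+/+ and control 3 was Setdb1 +/p;vav-cre. All 4 groups therefore carried at least 1 p allele. LT-HSC (long-term haematopoietic stem cells) were the CD150-positive, CD48-negative LSK cells, with 500 to 1000 cells per sample, and MPP (multipotent progenitors) the CD150-negative, CD48-positive ones, with 20000 cells per sample. No label says that libraries came from separate fetuses, so p-values measure the spread between these samples, which may be technical.

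Total expected counts per library lay between 10119416 and 14113198. Slamf1, which encodes CD150, averaged 38.6 CPM (counts per 1000000 counts of the scaled library) in LT-HSC mutants, 36.7 in LT-HSC controls, 1.24 in MPP mutants and 1.79 in MPP controls. Cd48 averaged 18.7 CPM in LT-HSC mutants, 14.4 in LT-HSC controls, 171 in MPP mutants and 228 in MPP controls, so both sort markers followed the labels. Setdb1 itself was counted in every library, at 66.4 to 80.8 CPM in LT-HSC mutants against 73.4 to 108 in LT-HSC controls, and at 86.9 to 117 CPM in MPP mutants against 87.8 to 140 in MPP controls. Counts over the whole gene include transcripts that lack some exons, so the level does not check the genotype labels. Macrophage and hepatoblast genes, which mark other cells of the fetal liver, were detected in all 12 libraries, and their values stand beside the comparisons.

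Hoxa3, Hoxa5, Hoxa7 and Hoxa9 fell together in MPP mutants, and the sequences at their start sites are shown to let them be set against each other. Each runs 5′ to 3′ on the strand of the gene, from 250 bases before to 50 bases after the start site, and comes from RefSeq on GRCm38.p6. All lie on the minus strand of chromosome 6, at chr6:52213018-52213317 for Hoxa3, chr6:52204538-52204837 for Hoxa5, chr6:52218524-52218823 for Hoxa7 and chr6:52227321-52227620 for Hoxa9. Capitals mark the letters of any motif found.
Hoxa3: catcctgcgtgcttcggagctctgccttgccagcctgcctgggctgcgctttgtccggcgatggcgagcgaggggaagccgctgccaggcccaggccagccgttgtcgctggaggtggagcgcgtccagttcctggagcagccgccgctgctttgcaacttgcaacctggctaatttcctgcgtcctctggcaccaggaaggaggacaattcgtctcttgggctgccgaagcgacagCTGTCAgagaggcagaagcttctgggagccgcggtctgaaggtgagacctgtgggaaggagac
Hoxa5: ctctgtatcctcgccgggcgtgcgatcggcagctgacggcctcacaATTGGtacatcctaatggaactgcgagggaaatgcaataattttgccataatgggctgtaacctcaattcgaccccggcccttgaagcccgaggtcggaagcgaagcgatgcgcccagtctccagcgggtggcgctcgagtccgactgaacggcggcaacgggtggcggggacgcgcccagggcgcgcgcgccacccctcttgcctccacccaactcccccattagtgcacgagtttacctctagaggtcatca
Hoxa7: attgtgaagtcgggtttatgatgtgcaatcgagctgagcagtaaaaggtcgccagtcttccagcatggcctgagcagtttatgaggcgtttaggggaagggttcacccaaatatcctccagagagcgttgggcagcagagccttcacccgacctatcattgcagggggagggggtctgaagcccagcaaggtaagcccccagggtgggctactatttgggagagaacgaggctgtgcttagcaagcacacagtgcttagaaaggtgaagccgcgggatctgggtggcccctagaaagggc
Hoxa9: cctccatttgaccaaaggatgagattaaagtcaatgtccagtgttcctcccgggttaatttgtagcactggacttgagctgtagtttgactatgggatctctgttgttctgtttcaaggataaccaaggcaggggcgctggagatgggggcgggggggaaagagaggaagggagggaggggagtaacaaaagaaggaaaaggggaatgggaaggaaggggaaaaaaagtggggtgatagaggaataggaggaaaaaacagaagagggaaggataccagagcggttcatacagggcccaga
The 4 sequences differed in base composition. Hoxa5 held 29 CpG pairs and Hoxa3 held 20, against 9 in Hoxa7 and 4 in Hoxa9, where the median over all 32851 RefSeq mouse promoters of this length was 7. Their GC content was 61.7% in Hoxa5, 64.0% in Hoxa3, 55.7% in Hoxa7 and 49.7% in Hoxa9, with a median of 52.7% over all promoters. The search covered 5 motifs on both strands, namely the TATA box as TATAAA, the CCAAT box under that spelling, a Hox-Pbx type motif as TGATTNAT, a Meis type motif as TGACAG and a GATA type motif as AGATAA. No match overlapped another in these 4 windows. Hoxa3 held TGACAG, read as CTGTCA on this strand from 13 bases before the start site, a motif found in 19.2% of all promoters. Hoxa5 held CCAAT, read as ATTGG from 204 bases before the start site, a motif found in 37.4% of all promoters. The windows of Hoxa7 and Hoxa9 held none of the 5, and no motif was shared by all 4 genes. The TATA box, the Hox-Pbx type and the GATA type were in none of the 4 windows and in 13.6%, 3.22% and 11.2% of all promoters. RefSeq's table held a promoter for 22 of the 39 Hox genes, in 24 windows with a median of 14.5 CpG pairs. Hoxa10, which missed the threshold in MPP, had windows at 2 start sites, with 12 and 21 CpG pairs. The start sites are those of the annotation, and their use in these cells was not tested.

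Hox messenger RNA in these cells came mainly from Hoxa and, in LT-HSC, also from Hoxb. The Hoxa cluster (chromosome 6, 52155367 to 52260880 in GRCm38) gathered 23218 expected counts over the 12 libraries. Hoxb (chromosome 11, 96194316 to 96368254) gathered 2750, Hoxc (chromosome 15, 102921131 to 103036856) 113 and Hoxd (chromosome 2, 74668225 to 74765142) 14. No Hox gene had a fractional expected count in any library, so no read was shared between paralogues by the estimate. Of the 39 genes, 24 had a count in at least 1 library and 15 had none in any. The 15 were Hoxa11, Hoxa13, Hoxb1, Hoxb13, Hoxc8, Hoxc11, Hoxc12, Hoxc13, Hoxd1, Hoxd3, Hoxd9, Hoxd10, Hoxd11, Hoxd12 and Hoxd13, which include every gene numbered 11 to 13. Genes with a count in all 12 libraries numbered 7 in Hoxa and 4 in Hoxb, and 0 in Hoxc and Hoxd.

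By group, 23 Hox genes had a count in LT-HSC mutants, 22 in LT-HSC controls, 16 in MPP mutants and 16 in MPP controls. With a total of 34708473 to 39345910 counts per group of 3 libraries, a gene with no count may have reached up to 0.0762 to 0.0864 CPM, the level of 3 counts over the group. This limit covers counting error only. Genes averaging at least 1 CPM numbered 12 in LT-HSC mutants, 13 in LT-HSC controls, 6 in MPP mutants and 7 in MPP controls.

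**Figure D1:**
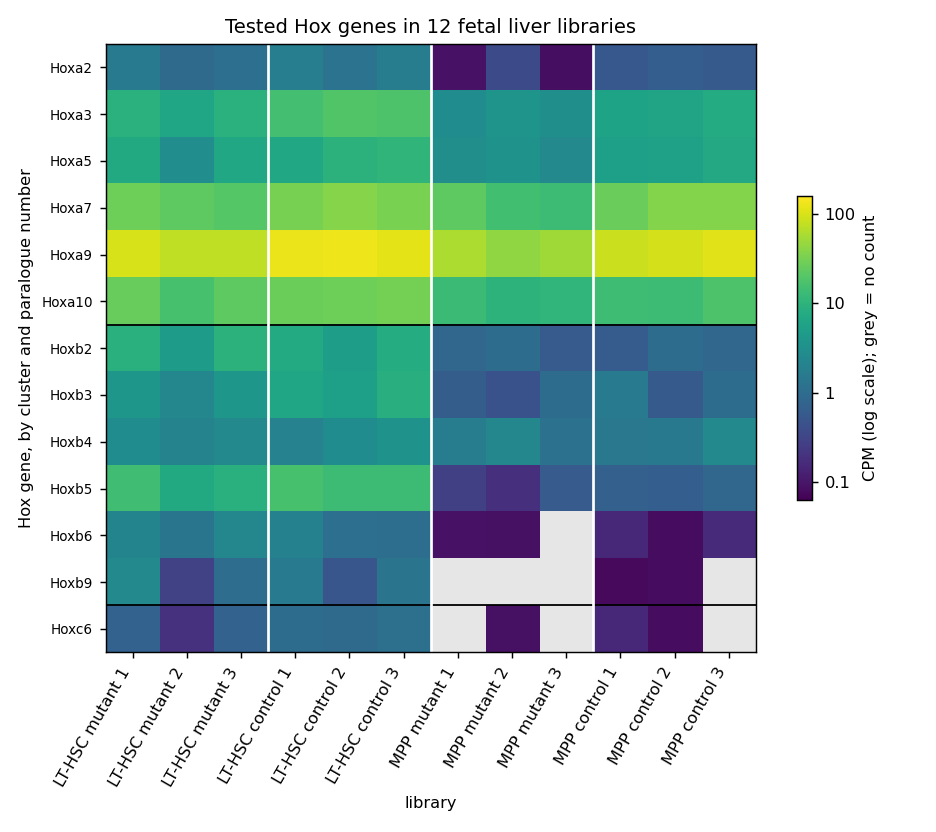
Level of the 13 Hox genes that passed the filter on low counts in at least 1 comparison (rows, by cluster) in the 12 libraries (columns, by group), as CPM on a log colour scale, with grey for no count. Hoxa9 is the brightest row in all 4 groups, Hoxb2, Hoxb3, Hoxb5, Hoxb6 and Hoxb9 are brighter in LT-HSC than in MPP, and the only grey cells lie in MPP.

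Summed over its 11 genes, Hoxa came to 173, 127 and 135 CPM in LT-HSC mutants 1, 2 and 3, against 211, 228 and 211 CPM in LT-HSC controls 1, 2 and 3. In MPP the sum was 102, 76.6 and 82.2 CPM in mutants, against 137, 161 and 183 CPM in controls. In both cell types the 3 mutants lay below the 3 controls. Summed over its 10 genes, Hoxb came to 35.7, 18.4 and 29.5 CPM in LT-HSC mutants and to 36.5, 28.6 and 36.7 CPM in LT-HSC controls, ranges that overlapped. In MPP the Hoxb sum was 3.59, 4.08 and 3.39 CPM in mutants and 4.63, 3.903 and 5.29 CPM in controls, and every MPP library lay below every LT-HSC library. Per length, in TPM (transcripts per 1000000 transcripts), Hoxa made up 75.1% to 82.5% of all Hox transcripts in LT-HSC mutants, 80.3% to 85.1% in LT-HSC controls, 94.0% to 96.1% in MPP mutants and 96.2% to 97.05% in MPP controls. Hoxb made up 22.0%, 16.8% and 23.5% in LT-HSC mutants and 19.0%, 14.1% and 17.9% in LT-HSC controls. In MPP it made up 3.88%, 5.85% and 4.48% in mutants, all above the 3.603%, 2.87% and 3.26% in controls. The sums and shares are described without a test.

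**Figure D2:**
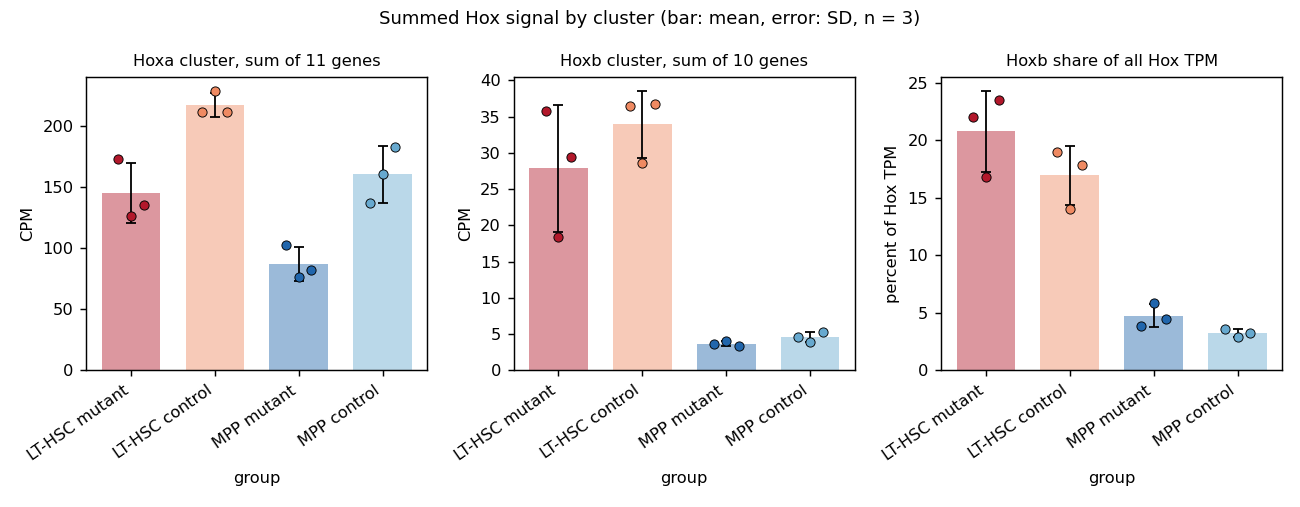
Summed CPM of the Hoxa genes (left) and Hoxb genes (middle), and the Hoxb share of all Hox TPM in percent (right), by group, with the mean as a bar, the SD as an error line and 3 libraries as points. The Hoxa sum of mutants lies below that of controls in LT-HSC (127 to 173 against 211 to 228 CPM) and in MPP (76.6 to 102 against 137 to 183 CPM), and the Hoxb sum separates LT-HSC from MPP.

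Levels of different genes were compared per length, in TPM. In LT-HSC controls Hoxa9, known for its part in stem and progenitor self-renewal, was highest at 74.2 ± 5.49 TPM (SD, n = 3 here and below). Hoxa7, its neighbour in the cluster, followed at 34.5 ± 3.05 and Hoxa10, known to act in early progenitors and megakaryocytes, at 22.7 ± 0.978. Their libraries did not overlap in this order. Hoxb5 at 14.98 ± 1.94 and Hoxa3 at 12.9 ± 1.09 overlapped each other, as did Hoxa5 at 9.46 ± 1.74 and Hoxb2 at 8.48 ± 2.04. From Hoxb3 at 3.79 ± 0.958 down to Hoxc6 at 1.29 ± 0.110 TPM, each gene overlapped the next, and 13 genes reached a mean of 1 TPM. In LT-HSC mutants Hoxa9 at 48.1 ± 9.37 TPM stood clear of the next gene, and each of the other 11 genes at or above 1 TPM overlapped its neighbour in the order.

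In MPP controls 7 genes reached a mean of 1 TPM and 6 of them were Hoxa genes. Hoxa9 at 51.9 ± 7.74, Hoxa7 at 30.3 ± 5.52 and Hoxa10 at 10.7 ± 1.64 TPM again did not overlap. Hoxa5 at 5.57 ± 0.889 and Hoxa3 at 4.48 ± 0.707 overlapped, as did Hoxa6 at 1.69 ± 0.480 and Hoxb4 at 1.21 ± 0.387. In MPP mutants the same 7 genes came in the same order, from Hoxa9 at 25.4 ± 4.86 and Hoxa7 at 14.1 ± 4.64 to Hoxb4 at 1.07 ± 0.346 TPM. Hoxb4, whose forced expression is known to expand stem cells, had the highest mean level per length of the Hoxb genes in MPP, where its libraries overlapped those of Hoxb2 in mutants and in controls, while in LT-HSC controls Hoxb5, Hoxb2 and Hoxb3 stood above it without overlap.

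The control groups of LT-HSC and MPP were compared with each other, and both carry the p allele while vav-cre was in 2 of 3 LT-HSC controls and 1 of 3 MPP controls. Hoxb2, Hoxb3, Hoxb5, Hoxb6, Hoxc6, Hoxa2, Hoxa3, Hoxa9 and Hoxa10 were higher in LT-HSC controls than in MPP controls, and Hoxa5, Hoxa7 and Hoxb4 did not pass the test. Of 39 Hox genes, 12 passed the filter on low counts and 9 were higher in LT-HSC by edgeR's quasi-likelihood test with Benjamini-Hochberg adjustment over all genes (adjusted p under 0.05), against 20.5% of all 12834 genes tested. None was lower, against 18% of all genes, and 0 of the 12 tested Hox genes had a log2 fold change below 0, against 49.1% of all genes. For 9 of the 12 the lowest LT-HSC control lay above the highest MPP control, which held for 26.5% of all genes, and for 0 the reverse, which held for 24.6%. Of the 12, 6 (Hoxa2, Hoxb2, Hoxb3, Hoxb5, Hoxb6 and Hoxc6) had passed the filter through the LT-HSC libraries, where they are high, so none of these counts measures how often Hox genes differ or in which direction. Among the 6 genes that met the count minimum in all 6 libraries, Hoxa3, Hoxa9 and Hoxa10 were called and Hoxa5, Hoxa7 and Hoxb4 were not. The median log2 fold change over all genes was 0.01.

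Markers of other cells also differed between these groups. Hepatoblast genes summed to 415 to 1582 CPM in LT-HSC controls against 160 to 429 CPM in MPP controls, and all 10 were higher. Macrophage genes summed to 680 to 1009 CPM in LT-HSC controls and 639 to 901 CPM in MPP controls, with 6 of 9 tested higher and 1 lower. Erythroid genes summed to 1056 to 1627 CPM in LT-HSC controls against 539 to 790 CPM in MPP controls, with 6 of 9 higher. Lymphoid genes summed to 134 to 151 CPM in LT-HSC controls against 554 to 595 CPM in MPP controls, with 5 of 5 tested lower. Most of both lymphoid sums was Flt3, with a mean of 140 CPM in LT-HSC controls and 457 CPM in MPP controls. Of the endothelial genes 4 of 6 tested were higher, of the stromal genes 2 of 3 were higher and 1 lower, and of the mast cell and basophil genes 2 of 3 were lower. The part of these lists in the Hox values was not tested.

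Hoxb5, known in adult mouse bone marrow as a marker of long-term stem cells, had 16.1, 13.47 and 13.7 CPM in LT-HSC controls, against 0.694, 0.664 and 0.826 CPM in MPP controls. Its log2 fold change of LT-HSC over MPP was 4.30 (SE 0.250, adjusted p = 2.56e-06 by edgeR's quasi-likelihood test), the largest of the tested Hox genes. The mutants, which were not used in that test, showed a gap of the same kind, with 14.6, 7.38 and 9.07 CPM in LT-HSC mutants against 0.276, 0.181 and 0.593 CPM in MPP mutants.

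Hoxb2, a gene of hindbrain patterning, had 7.65, 5.08 and 7.98 CPM in LT-HSC controls, against 0.617, 0.996 and 0.826 CPM in MPP controls. Hoxb3, whose loss together with Hoxb4 is known to slow stem cell division, had 6.33, 5.30 and 8.74 CPM in LT-HSC controls, against 1.62, 0.581 and 0.991 CPM in MPP controls. Hoxb6, a gene of axial skeleton patterning, had 1.98, 1.10 and 1.05 CPM in LT-HSC controls, against 0.154, 0.0830 and 0.165 CPM in MPP controls. For all 3 genes the lowest LT-HSC control lay above the highest MPP control. The log2 fold changes were 3.08 for Hoxb2 (SE 0.332, adjusted p = 9.85e-05), 2.66 for Hoxb3 (SE 0.384, adjusted p = 0.000558) and 3.28 for Hoxb6 (SE 0.600, adjusted p = 0.00216), all by edgeR's quasi-likelihood test. Hoxb4 overlapped between the cell types, with 2.05, 2.87 and 3.46 CPM in LT-HSC controls, against 1.46, 1.49 and 2.48 CPM in MPP controls. Its log2 fold change was 0.63, with a 95% interval of -0.18 to 1.43 (adjusted p = 0.197 by edgeR). The strand was not kept, and in GENCODE M21 58.5% of the exon bases of Hoxb2 and 63.9% of those of Hoxb3 lie opposite exons of Hoxb3os, an antisense gene. Reads of Hoxb2 and Hoxb3 therefore cannot be told apart from reads of Hoxb3os over those bases, while for Hoxb5 the share opposite an antisense gene was 5.28% and for Hoxb4 and Hoxb6 it was 0.

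**Figure D3:**
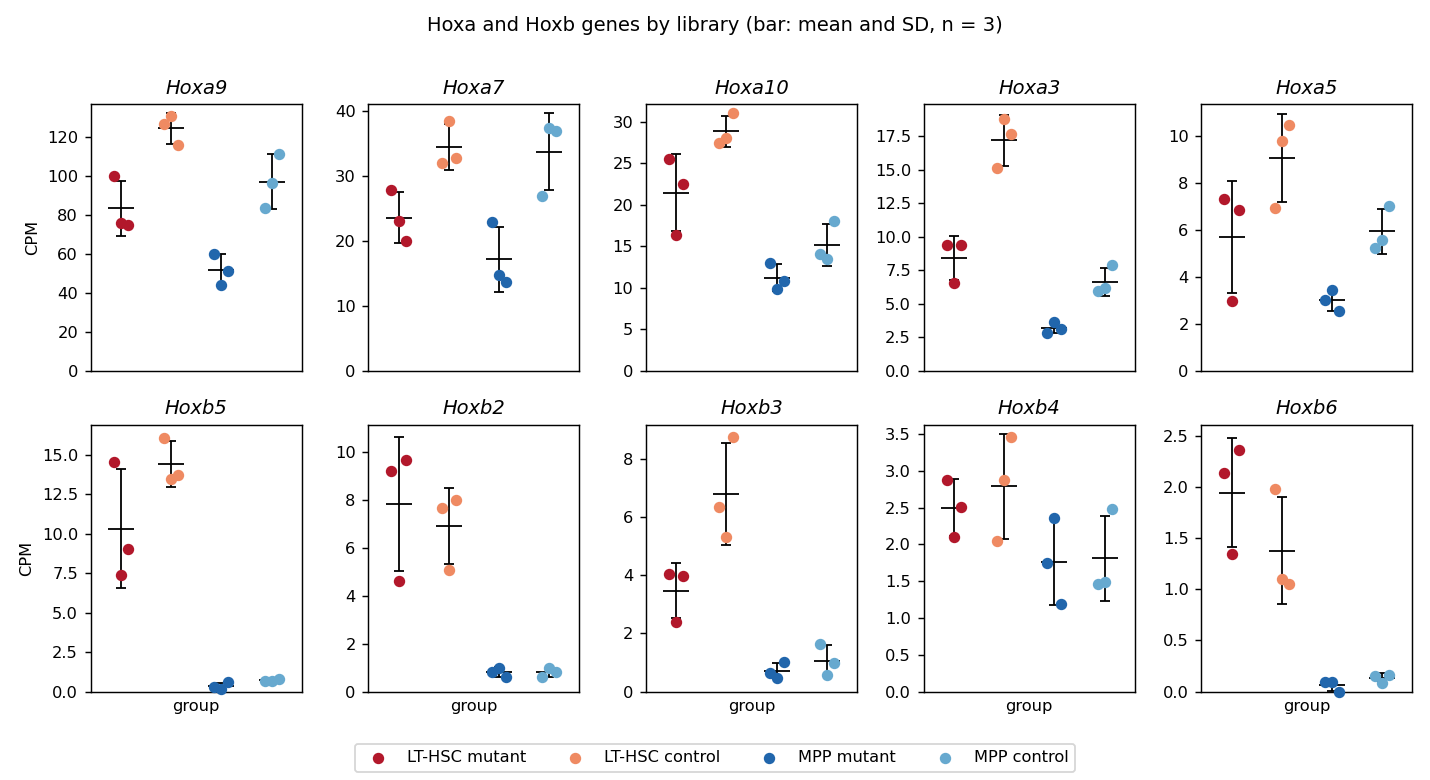
CPM of 5 Hoxa genes (top) and 5 Hoxb genes (bottom) in each library, with the group mean and SD (n = 3), LT-HSC groups to the left of MPP groups and mutants to the left of controls. Hoxb2, Hoxb3, Hoxb5 and Hoxb6 stand above 1 CPM in LT-HSC and at or below 1.62 CPM in MPP, while Hoxa9 and Hoxa7 are high in both cell types and lower in the mutants.

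Among the Hoxa genes, Hoxa3, a patterning gene of the pharyngeal arches, had 15.1, 18.8 and 17.6 CPM in LT-HSC controls, against 5.94, 6.14 and 7.85 CPM in MPP controls. Its log2 fold change was 1.38 (SE 0.191, adjusted p = 0.000437 by edgeR's quasi-likelihood test). Hoxa10 had 27.4, 28.05 and 31.0 CPM in LT-HSC controls, against 14.03, 13.45 and 18.01 CPM in MPP controls, a log2 fold change of 0.93 (SE 0.157, adjusted p = 0.00134 by edgeR). Both genes showed no overlap between the groups. Hoxa2, a gene of hindbrain and arch patterning, had 1.78, 1.25 and 1.73 CPM in LT-HSC controls, against 0.540, 0.664 and 0.578 CPM in MPP controls (log2 fold change 1.42, SE 0.408, adjusted p = 0.0207 by edgeR). Hoxa9 had 127, 131 and 116 CPM in LT-HSC controls, against 83.6, 96.3 and 111 CPM in MPP controls (log2 fold change 0.37, SE 0.114, adjusted p = 0.0289 by edgeR). Hoxa2 and Hoxa9 did not overlap between the groups, and the gap of Hoxa9 was the smallest of those called. Hoxa7 had 31.9, 38.4 and 32.7 CPM in LT-HSC controls, against 26.8, 37.3 and 36.8 CPM in MPP controls, and its log2 fold change of 0.04 had a 95% interval of -0.31 to 0.38 (adjusted p = 0.866 by edgeR). Hoxa5, linked in blood to the choice between red cell and myeloid fate, had a log2 fold change of 0.61 that missed the threshold (adjusted p = 0.0625 by edgeR). The call of Hoxa9 ended without LT-HSC control 1 or 2 or MPP control 1 or 2 (adjusted p = 0.0709 to 0.0999 by edgeR), and that of Hoxa2 without LT-HSC control 1 or any 1 of the MPP controls (adjusted p = 0.0583 to 0.0879 by edgeR). With only the controls that carry vav-cre (2 LT-HSC, 1 MPP, in a fit that pools the spread over all groups) Hoxb5 alone of the Hox genes was called. In that fit, the log2 fold changes of Hoxb2, Hoxb3, Hoxa3 and Hoxa10 were 2.90, 2.74, 1.15 and 0.65 (adjusted p = 0.0607, 0.0695, 0.106 and 0.271 by edgeR).

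In MPP, 4 of the 5 tested Hoxa genes were lower in the mutants. Hoxa3, Hoxa5, Hoxa7 and Hoxa9 fell to between 47.5% and 52.4% of the level in MPP controls, Hoxa10 was lower by less and missed the threshold, and Hoxb4 had a log2 fold change near 0 with a wide interval. Of 39 Hox genes 7 passed the filter, and 4 of them were lower by edgeR's quasi-likelihood test with Benjamini-Hochberg adjustment, against 18.5% of all 12392 genes tested. None was higher, against 16.5% of all genes. At an unadjusted p under 0.05 there were 5, the same 4 and Hoxa10, against 45.4% of all genes, and all 5 were lower. All 7 had a log2 fold change below 0, as did 51.2% of all genes. The 4 genes met the count minimum in all 6 libraries. The median log2 fold change was -1.001 for the 5 tested Hoxa genes and -0.01 for all genes. For 5 of the 7 the highest mutant lay below the lowest control, which held for 24.3% of all genes, and for 0 the reverse, which held for 26.6%.

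Hoxa9 had 59.9, 43.8 and 51.4 CPM in MPP mutants 1, 2 and 3, against 83.6, 96.3 and 111 CPM in MPP controls 1, 2 and 3. All 3 mutants lay below all 3 controls, and the log2 fold change was -0.93 (SE 0.135, adjusted p = 0.000378 by edgeR's quasi-likelihood test). Hoxa7 had 22.8, 14.8 and 13.7 CPM in MPP mutants, against 26.8, 37.3 and 36.8 CPM in MPP controls. Mutant 1 was the highest mutant and control 1 the lowest control, and the log2 fold change was -1.001 (SE 0.202, adjusted p = 0.00299 by edgeR). Hoxa3 had 2.85, 3.63 and 3.13 CPM in MPP mutants, against 5.94, 6.14 and 7.85 CPM in MPP controls. Hoxa5 had 3.04, 3.45 and 2.54 CPM in MPP mutants, against 5.24, 5.56 and 7.02 CPM in MPP controls. Neither gene overlapped between the groups, and the log2 fold changes were -1.07 for Hoxa3 (SE 0.216, adjusted p = 0.00292) and -1.01 for Hoxa5 (SE 0.227, adjusted p = 0.00558), both by edgeR's quasi-likelihood test. The 4 genes were called in each fit that left out 1 MPP library.

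Hoxa10 had 13.0, 9.89 and 10.8 CPM in MPP mutants, against 14.03, 13.45 and 18.01 CPM in MPP controls. The groups did not overlap, and the log2 fold change of -0.46 missed the threshold (SE 0.171, adjusted p = 0.0576 by edgeR's quasi-likelihood test), with a 95% interval of -0.83 to -0.08. Hoxb4 had 1.75, 2.36 and 1.19 CPM in MPP mutants and 1.46, 1.49 and 2.48 CPM in MPP controls, and the groups overlapped. Its log2 fold change of -0.07 had a 95% interval of -0.83 to 0.70 (adjusted p = 0.898 by edgeR), which still allows a drop as large as that of Hoxa10. Hoxb3, at 0.644, 0.453 and 1.02 CPM in MPP mutants against 1.62, 0.581 and 0.991 CPM in MPP controls, was near the count minimum (log2 fold change -0.61, adjusted p = 0.334 by edgeR). That value was -0.17 without MPP control 1, -0.38 without MPP mutant 2 and -0.97 without MPP mutant 3. Hoxa2 had 0.0920, 0.363 and 0.0847 CPM in MPP mutants, against 0.540, 0.664 and 0.578 CPM in MPP controls, and was too low for the test. Hoxa4 and Hoxa6 were below 1 CPM in all 12 libraries.

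**Figure D4:**
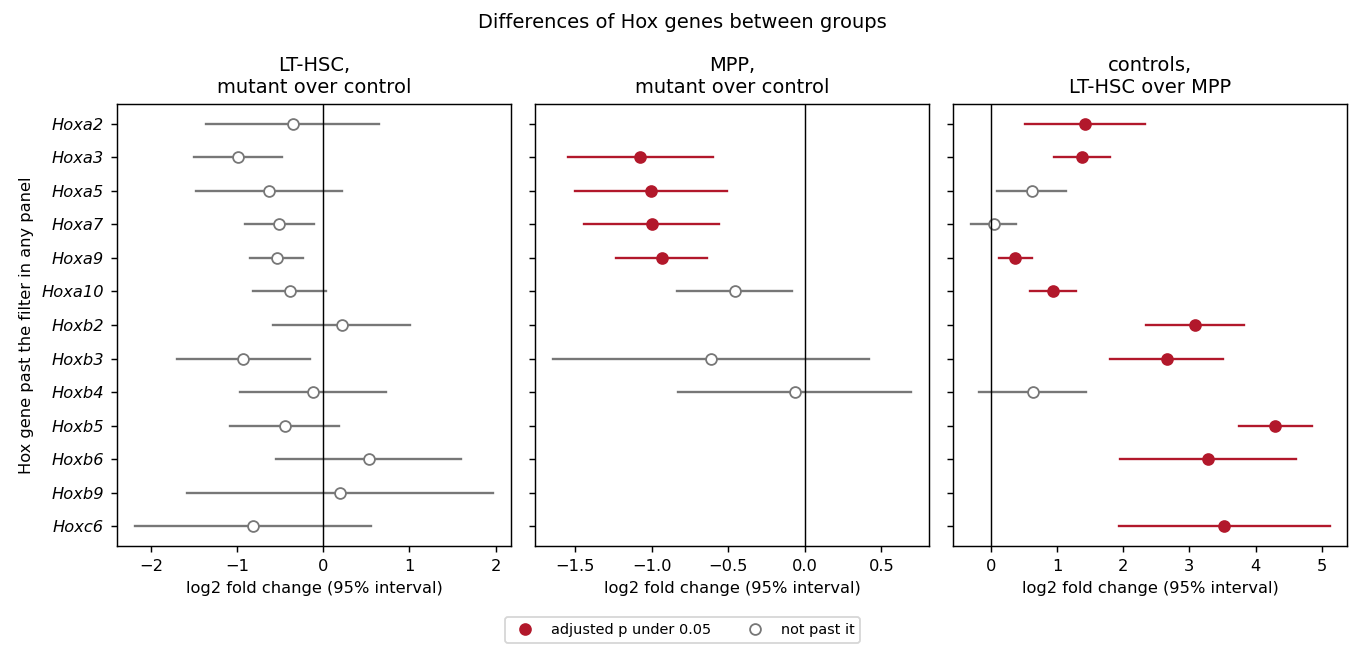
Log2 fold change with its 95% interval for each Hox gene that passed the filter, for LT-HSC mutant over control (left), MPP mutant over control (middle) and control LT-HSC over control MPP (right), with filled points for an adjusted p under 0.05. In MPP the 4 called genes lie between -1.07 and -0.93, in LT-HSC no interval belongs to a called gene, and in the right panel 4 of 5 Hoxb genes lie above 2.6. Each panel has its own scale.

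The transgene and the make-up of the sorted cells move with this comparison. All 3 MPP mutants carry vav-cre, and MPP controls 1 and 2 do not. MPP control 3, which carries it, had 111 CPM of Hoxa9, 36.8 of Hoxa7, 7.85 of Hoxa3 and 7.02 of Hoxa5, above each of the mutants for all 4 genes. With MPP control 3 as the only MPP control, in a fit that pools the spread over all groups, Hoxa9 stayed called and the log2 fold changes of Hoxa3, Hoxa7 and Hoxa5 were -1.35, -1.17 and -1.28 (adjusted p = 0.0793, 0.110 and 0.195 by edgeR). Summed levels of 9 erythroid genes were 2373 to 3638 CPM in MPP mutants against 539 to 790 CPM in MPP controls, and all 9 were higher. In that sum Car1 alone held 1095, 1799 and 1645 CPM in MPP mutants, against 9.41, 10.05 and 9.996 CPM in MPP controls. Summed levels of 6 lymphoid genes were 208 to 282 CPM in MPP mutants against 554 to 595 CPM in MPP controls, and the 5 tested were lower. Most of that lymphoid sum was Flt3, with a mean of 241 CPM in MPP mutants and 457 CPM in MPP controls. Summed levels of 10 macrophage genes were 74.5 to 172 CPM in MPP mutants against 639 to 901 CPM in MPP controls, with 8 of 9 tested lower, and those of 10 hepatoblast genes were 58.2 to 104 CPM in MPP mutants against 160 to 429 CPM in MPP controls, with 4 of 10 lower. Of all genes tested in MPP, 16.5% were higher and 18.5% lower. No gene of these 4 lists was at 0 in either MPP group. Endothelial genes summed to 94.96 to 135 CPM in MPP mutants and 130 to 151 CPM in MPP controls, with 4 of 7 lower (Cdh5, Stab2, Tek and Emcn) and Lyve1 higher. Stromal genes summed to 27.8 to 47.1 CPM in MPP mutants and 39.1 to 53.3 CPM in MPP controls, with 0 of 1 tested called. Mast cell and basophil genes summed to 7.71 to 12.2 CPM in MPP mutants and 9.17 to 18.3 CPM in MPP controls, with 1 of 3 tested lower. The stromal genes Lum and Des were at 0 in both MPP groups and Pdgfra in the mutants, where Gzmb and Fcer1a of the mast cell list were at 0 as well. The part of these lists in the Hox result was not tested. In bulk samples, fewer cells that express a gene and less RNA of it per cell cannot be told apart.

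Within the Hoxa cluster, Hoxa10 took a larger part of the signal in MPP mutants. It made up 12.7% to 13.2% of all Hoxa counts in MPP mutants against 8.37% to 10.2% in MPP controls. Hoxa9 made up 57.2% to 62.6% in MPP mutants against 59.9% to 61.0% in MPP controls, and Hoxa7 16.7% to 22.3% in MPP mutants against 19.6% to 23.2% in MPP controls. In LT-HSC, Hoxa3 made up 5.15% to 6.93% in mutants against 7.15% to 8.35% in controls, and the other 4 genes overlapped. These shares follow from the levels above and were not tested.

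**Figure D5:**
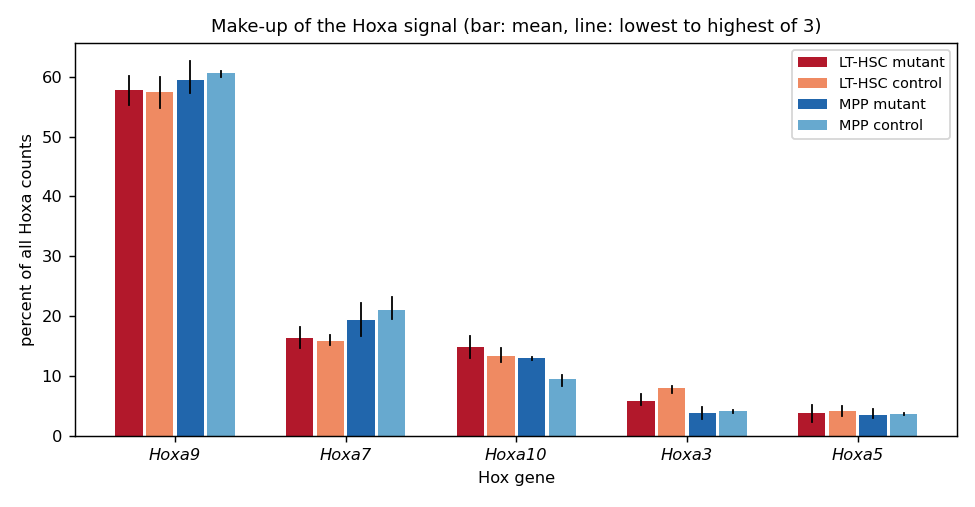
Percent of all Hoxa counts held by each of 5 Hoxa genes, by group, as the mean (bar) and the range over 3 libraries (line). Counts are not divided by length, so bars of the same gene are to be compared: Hoxa10 lies at 12.7% to 13.2% in MPP mutants against 8.37% to 10.2% in MPP controls, and Hoxa9 stays between 54.9% and 62.6% in all groups.

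In LT-HSC the log2 fold changes of the tested Hoxa genes also lay below 0, from -0.99 for Hoxa3 to -0.36 for Hoxa2, and none passed the threshold. Hoxb genes pointed in both directions. Of 39 Hox genes 13 passed the filter and 0 were called by edgeR's quasi-likelihood test with Benjamini-Hochberg adjustment, against 0.42% of all 12847 genes tested. At an unadjusted p under 0.05 there were 4 (Hoxa3, Hoxa7, Hoxa9 and Hoxb3), against 9.5% of all genes, and all 4 were lower. DESeq2 called 2, Hoxa3 (adjusted p = 0.0131) and Hoxa9 (adjusted p = 0.0283), and edgeR fitted to all 12 libraries together called Hoxa3 (adjusted p = 0.0243). For 6 of the 13 the highest mutant lay below the lowest control, which held for 9.56% of all genes, and for 0 the reverse, which held for 6.9%. Among the 6, Hoxc6 had passed the filter through the LT-HSC controls, where it is higher. Of the 13, 10 had a log2 fold change below 0, Hoxc6 among them, as did 45.1% of all genes. The 6 tested Hoxa genes were all below 0, with a median of -0.53, while the 6 tested Hoxb genes were split 3 and 3, with a median of 0.04 against 0.03 for all genes.

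Hoxa9 had 99.8, 76.0 and 74.7 CPM in LT-HSC mutants 1, 2 and 3, against 127, 131 and 116 CPM in LT-HSC controls 1, 2 and 3. Hoxa7 had 27.7, 23.0 and 19.9 CPM in LT-HSC mutants, against 31.9, 38.4 and 32.7 CPM in LT-HSC controls. Hoxa3 had 9.38, 6.52 and 9.36 CPM in LT-HSC mutants, against 15.1, 18.8 and 17.6 CPM in LT-HSC controls. None of the 3 genes overlapped between the groups. Their log2 fold changes were -0.54 for Hoxa9 (SE 0.131, adjusted p = 0.215), -0.51 for Hoxa7 (SE 0.171, adjusted p = 0.406) and -0.99 for Hoxa3 (SE 0.221, adjusted p = 0.172), all by edgeR's quasi-likelihood test. Hoxa10 had 25.5, 16.4 and 22.5 CPM in LT-HSC mutants, against 27.4, 28.05 and 31.0 CPM in LT-HSC controls. Hoxa5 had 7.33, 2.97 and 6.85 CPM in LT-HSC mutants and 6.93, 9.79 and 10.47 CPM in LT-HSC controls. Hoxa10 did not overlap between the groups and Hoxa5 did, with log2 fold changes of -0.39 and -0.63 (adjusted p = 0.563 and 0.643 by edgeR). Hoxa2, at 1.56, 0.958 and 1.11 CPM in LT-HSC mutants and 1.78, 1.25 and 1.73 CPM in LT-HSC controls, overlapped as well (log2 fold change -0.36, adjusted p = 0.844 by edgeR).

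Among the Hoxb genes of LT-HSC, Hoxb3 had 4.03, 2.40 and 3.98 CPM in mutants, against 6.33, 5.30 and 8.74 CPM in controls. Hoxb5 had 14.6, 7.38 and 9.07 CPM in mutants, against 16.1, 13.47 and 13.7 CPM in controls. Hoxb3 did not overlap between the groups, and Hoxb5 overlapped through mutant 1. Hoxb2 had the higher mean in mutants, at 9.22, 4.60 and 9.66 CPM in mutants and 7.65, 5.08 and 7.98 CPM in controls. Hoxb6 had 2.14, 1.34 and 2.36 CPM in mutants and 1.98, 1.10 and 1.05 CPM in controls, and Hoxb4 had 2.88, 2.11 and 2.51 CPM in mutants and 2.05, 2.87 and 3.46 CPM in controls. Hoxb2, Hoxb4 and Hoxb6 overlapped between the groups. The log2 fold changes were -0.93 for Hoxb3 (adjusted p = 0.434), -0.45 for Hoxb5 (adjusted p = 0.651), 0.21 for Hoxb2 (adjusted p = 0.895), 0.53 for Hoxb6 (adjusted p = 0.780) and -0.12 for Hoxb4 (adjusted p = 0.945), by edgeR's quasi-likelihood test. The 95% intervals of Hoxb2 (-0.58 to 1.01), Hoxb6 (-0.54 to 1.60) and Hoxb4 (-0.97 to 0.72) were wide and included 0.

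LT-HSC mutant 2, the library with the lowest total count, was the lowest LT-HSC mutant for 11 of the 13 tested Hox genes, the exceptions being Hoxa7 and Hoxa9. Without it 0 Hox genes were called, and the log2 fold changes were -0.87 for Hoxa3, -0.51 for Hoxa9, -0.35 for Hoxa5 and -0.29 for Hoxb5. Macrophage genes summed to 787 CPM in LT-HSC mutant 2, against 25.1 and 102 CPM in LT-HSC mutants 1 and 3 and 680 to 1009 CPM in LT-HSC controls. Hepatoblast genes summed to 52.8 to 395 CPM in LT-HSC mutants against 415 to 1582 CPM in LT-HSC controls. Lymphoid genes summed to 53.0 to 79.5 CPM in LT-HSC mutants against 134 to 151 CPM in LT-HSC controls. Most of that lymphoid sum was Flt3, with a mean of 65.2 CPM in LT-HSC mutants and 140 CPM in LT-HSC controls. Il7r and Rag1 were at 0 in the mutants and Dntt was at 0 in the controls. Erythroid genes summed to 1469 to 2912 CPM in LT-HSC mutants and to 1056 to 1627 CPM in LT-HSC controls. In that sum Car1 alone held 437, 580 and 1371 CPM in LT-HSC mutants, against 5.67, 9.72 and 8.28 CPM in LT-HSC controls. Endothelial genes summed to 195 to 283 CPM in LT-HSC mutants and to 278 to 297 CPM in LT-HSC controls. Stromal genes summed to 1.03 to 4.36 CPM in LT-HSC mutants and to 3.46 to 11.5 CPM in LT-HSC controls, and mast cell and basophil genes to 0.741 to 5.18 CPM in LT-HSC mutants and to 1.12 to 4.20 CPM in LT-HSC controls. Of these lists 1 of 9 erythroid genes (Car1) was called higher and 1 of 2 tested lymphoid genes (Flt3) lower by edgeR, and 0 genes of the other lists. The part of these lists in the Hox values was not tested.

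The difference between the genotype effects in LT-HSC and MPP was tested as an interaction over all 12 libraries. None of 13 tested Hox genes was called by edgeR's quasi-likelihood test with Benjamini-Hochberg adjustment, against 0.377% of all 13249 genes, and 0 had an unadjusted p under 0.05, against 12.4% of all genes. DESeq2 also called 0. Of the 13, 2 had a log2 difference below 0, against 51.5% of all genes. Hoxa2, Hoxb2, Hoxb5, Hoxb6, Hoxb9 and Hoxc6 had not passed the filter in MPP alone and entered this fit through LT-HSC, where they are higher. Their effect in MPP rests on few counts, for Hoxb9 on 0 in MPP mutants and 2 in MPP controls. None of these counts of genes therefore measures how often the effects on Hox genes differ or in which direction. The log2 difference of the effects, LT-HSC minus MPP, was 0.33 for Hoxa9 (95% interval -0.12 to 0.79, adjusted p = 0.581), 0.43 for Hoxa7 (-0.21 to 1.07, adjusted p = 0.624) and 0.02 for Hoxa3 (-0.58 to 0.63, adjusted p = 0.989), by edgeR. All 3 intervals include 0. The lower level of Hoxa genes is therefore called in MPP and not in LT-HSC without being shown to differ between them.

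Hoxb7, Hoxb8, Hoxb9 and the Hoxc and Hoxd genes were counted almost only in LT-HSC and stayed under 3 CPM in every library. Hoxc6, a gene of thoracic patterning, had 0.741, 0.192 and 0.737 CPM in LT-HSC mutants, against 0.990, 0.957 and 1.13 CPM in LT-HSC controls, without overlap. It had 0, 0.0907 and 0 CPM in MPP mutants and 0.154, 0.0830 and 0 CPM in MPP controls. LT-HSC controls were above MPP controls (log2 fold change 3.53, SE 0.716, adjusted p = 0.00382), and the difference of LT-HSC mutants from controls missed the threshold (log2 fold change -0.82, adjusted p = 0.718), both by edgeR's quasi-likelihood test. Hoxb7 had 17 counts in LT-HSC mutants and 0 in MPP mutants, at least 6.01-fold higher, and 11 counts in LT-HSC controls and 0 in MPP controls, at least 3.52-fold higher, with the MPP group set at 3 counts. Hoxb9 had 48 counts in LT-HSC mutants and 0 in MPP mutants, at least 17.0-fold higher, and 49 counts in LT-HSC controls and 2 in MPP controls. In the comparison of the control groups Hoxc6 alone of these low genes passed the filter, and the bounds cover counting error only. With no filter on low counts edgeR also called Hoxb9, Hoxc10 and Hoxb7 higher in LT-HSC controls than in MPP controls (adjusted p = 0.00377, 0.0455 and 0.0473).

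The other genes of Hoxc and Hoxd that were counted were close to the floor. Hoxc10, a gene of lumbar and hindlimb patterning, had 0, 0.0958 and 0.295 CPM in LT-HSC mutants and 0.0660, 0.442 and 0.452 CPM in LT-HSC controls, with 0 counts in MPP. Hoxc4 had 0, 0.288 and 0.221 CPM in LT-HSC mutants and 0, 0 and 0.602 CPM in LT-HSC controls, with 0 counts in MPP. Both genes overlapped between LT-HSC mutants and controls. Hoxd4, a gene of neck vertebra patterning, had 0.247, 0.0958 and 0.442 CPM in LT-HSC mutants, against 0.0660, 0.0736 and 0.0753 CPM in LT-HSC controls, and had 0 counts in MPP. Its LT-HSC groups did not overlap, on 10 counts in mutants and 3 counts in controls. Hoxd8 had 1 count, in MPP mutant 3, and Hoxc9 had 1 count, in LT-HSC mutant 3.

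Other genes inside and beside the clusters were read from the same fits. Mira, a noncoding gene between Hoxa6 and Hoxa7, had 4.97, 3.63 and 4.07 CPM in MPP mutants, against 8.79, 8.80 and 9.42 CPM in MPP controls, and fell (log2 fold change -1.12, SE 0.191, adjusted p = 0.00111 by edgeR's quasi-likelihood test). In LT-HSC, Mira had 6.42, 5.27 and 4.27 CPM in mutants, against 7.92, 11.4 and 9.64 CPM in controls, without passing the threshold (log2 fold change -0.82, adjusted p = 0.395 by edgeR). Skap2, the nearest protein-coding gene at the low-coordinate end of the Hoxa cluster, encodes an adaptor protein of blood cells. It did not pass in MPP (log2 fold change -0.23, adjusted p = 0.0724 by edgeR). Evx1, the homeobox gene at the high-coordinate end, had 0 counts. Beside Hoxc, the autophagy-related gene Calcoco1 fell in MPP mutants (log2 fold change -0.80, adjusted p = 0.000303 by edgeR), and beside Hoxd the mitochondrial import gene Mtx2 rose (log2 fold change 0.51, adjusted p = 0.0123 by edgeR). The antisense gene Hoxaas3 reached at most 2.21 CPM, and Hotair, Mir10a, Mir10b and both Mir196a genes had 0 counts. In GENCODE M21 28.8% of the exon bases of Hoxa7 and 25.5% of those of Hoxa3 lie opposite an antisense gene, and 0 of those of Hoxa5, Hoxa9 and Hoxa10.

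Partner proteins and known regulators of Hox genes were described from a list of 29 genes, 23 of them tested in LT-HSC and 21 in MPP. In LT-HSC mutants 0 passed edgeR's quasi-likelihood test in either direction. In MPP mutants 5 of 21 were higher, against 16.5% of all genes, and 5 lower, against 18.5%, with a median log2 fold change of 0.03. Pbx3, a partner that binds DNA with Hox proteins, rose to 8.90 ± 0.998 CPM in MPP mutants against 4.71 ± 0.725 CPM in MPP controls (SD, n = 3 each, log2 fold change 0.89, adjusted p = 0.00452 by edgeR). Hlf, a transcription factor of stem cells, fell to 134 ± 12.7 CPM in MPP mutants against 194 ± 32.5 CPM in MPP controls (log2 fold change -0.56, adjusted p = 0.00478), and Mllt3, a chromatin reader that keeps Hox genes active, rose to 70.3 ± 15.99 CPM in MPP mutants against 43.9 ± 4.13 CPM in MPP controls (log2 fold change 0.65, adjusted p = 0.00683), both by edgeR. Between control LT-HSC and control MPP, 11 of 23 were higher, against 20.5% of all genes, and 2 lower, against 18%, among the higher Mllt3 (log2 fold change 2.51, adjusted p = 8.04e-07), Mecom, a transcription factor of stem cells (3.03, adjusted p = 1.18e-06) and Meis1, the main Meis partner in blood (1.18, adjusted p = 3.86e-05), by edgeR. Cdx1, Cdx2 and Cdx4, which encode activators of Hox genes in the early embryo, had 0 counts in every library, and the interaction called 0 of the list.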

How the data were processed

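The labels' protocols describe lysis of red cells, enrichment of cells without lineage markers and sorting of LT-HSC or MPP. Library input was 10 ng of RNA, and strand information was not kept, per the labels. The submitters' processing notes name STAR, RSEM and mm10, with tool versions not given in the sources used here. Each sample has 1 deposited table with expected counts, TPM, FPKM and gene lengths, per the file headers. The deposited FPKM and lengths were not used for any value printed. Expected counts (estimated counts, here whole numbers for every Hox gene) were rounded and tested with edgeR 4.0.16 in R 4.3.3, by the quasi-likelihood test after TMM scaling and the filterByExpr filter (minimum count 10, minimum total 15). Adjustment was by Benjamini-Hochberg over all genes tested, with a threshold of 0.05. CPM use the TMM-scaled library size over 12 libraries, and the deposited TPM of the authors served for comparing genes. LT-HSC, MPP and control libraries were fitted separately and the interaction over all 12. DESeq2 1.42.0 was an alternative, and the fits were tested on simulated data.

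The Hox genes and all lists were chosen with earlier results of these data known. The text gives library values for each Hox gene called in any comparison and for the 3 highest of each cluster, up to 4 called members of the partner list, and the genes inside and beside the clusters. The Hox genes given outside that rule, such as Hoxb4, were chosen after their values were seen. Some genes that the rule names are not reported here. All 39 matched RefSeq on GRCm38 by transcript accession.

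Titles number the replicates 1 to 3 in each group and were used, although some deposited tables carry another number than the title of their sample. Same-numbered LT-HSC mutants and controls deviated together, weakly, from their group means over 13249 genes (r = 0.108, 0.148 and 0.175). Whether the number marks pairs is not labelled, and the main fits did not use it. Same-numbered MPP mutants and controls did not (r = -0.02, -0.21 and -0.18), nor did the control LT-HSC and control MPP. Replicates of a group differed by more than sampling noise in every pair (chi-square 5.22 to 50.0 per gene).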

Additional observations from a re-analysis of the deposited data

How the results depend on the processing

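Hox genes called in LT-HSC numbered 0, against 2 with DESeq2 (Hoxa3, Hoxa9) and 1 in the joint fit of 12 libraries (Hoxa3), and all genes called 54, against 261 and 250. In MPP 4 Hox genes and 4337 genes were called, against 3 and 2792 in the joint fit, where Hoxa5 had an adjusted p of 0.0506, and against 1 and 125 with only the controls carrying vav-cre. That restricted fit, which assumes the lone MPP control to vary like the other groups, gave 1 Hox gene and 327 genes against 9 and 4942 between control LT-HSC and control MPP, and 0 genes against 50 in the interaction, where DESeq2 called 339 and edgeR with no filter 87. Hoxa10 was called in MPP under upper-quartile scaling (adjusted p = 0.0397) and without MPP mutant 1 (0.0384). Between the control groups DESeq2 missed Hoxa2 (0.107) and the joint fit Hoxa9 (0.0839). Leaving out 1 library at a time gave 13 to 102 genes in LT-HSC (13 without LT-HSC control 3, 14 without control 1, 15 without control 2, 17 without mutant 1, 102 without mutant 2) with 0 Hox genes. It gave 2774 to 4756 genes in MPP (2774 without MPP mutant 2 and 2867 without mutant 3) with 4 or 5 Hox genes, and 1 to 885 in the interaction (1 without MPP mutant 2, 885 without LT-HSC mutant 3, 42 without LT-HSC mutant 2 or MPP mutant 1, and 4 to 17 without each other library) with 0 Hox genes. The replicate block, which treats same-numbered libraries as matched, gave 48 genes in LT-HSC, 3765 in MPP, 4881 between controls and 53 in the interaction. It changed no Hox call. Values near 0 or of few counts changed sign and none of these was called. They were Hoxa7 between control groups (-0.118 with vav-cre controls only, -0.105 to 0.103 with 1 library left out), and in the interaction Hoxa10 (-0.0110 with the replicate block, -0.132 to 0.168 with 1 left out), Hoxa3 (-0.102 to 0.177) and Hoxc6 (-2.77 with vav-cre controls only, -0.470 to 2.34). Over the named Hox genes and all alternatives, the direction and the side of the threshold held in 140 of 143 values in LT-HSC, 72 of 78 in MPP, 121 of 143 between controls and 181 of 198 in the interaction. The cause of these changes was not tested. Depth limits Hoxc and Hoxd, where most counts are too low for a test.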
